A study of Mus musculus with 10 samples.

Results

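The genes described here are those through which a cell takes up glucose, breaks it down to pyruvate, and exchanges pyruvate for lactate or passes it to the mitochondrion. They were chosen by name as 32 genes in 6 steps, with earlier results of these data known, as were the further lists below. All 32 were found in the count tables by their Ensembl identifiers, among 48709 identifiers in all. All 32 also passed the filter on low counts, which kept 15660 genes. The cells were primary mouse hippocampal neurons, a dish culture of this memory-forming brain region, at 10 days in vitro. A group of 4 libraries came from cultures given DMSO, the solvent, and the other of 6 libraries from cultures given tunicamycin at 2 ug/mL, both for 6 h. Tunicamycin blocks the first step in building the sugar chains of N-linked glycoproteins, and the resulting misfolded proteins stress the endoplasmic reticulum (ER). The labels name no genotype, strain or sex, and do not say whether libraries of a group were separate cultures, so a p-value measures the spread between libraries, which may be technical.

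Glucose enters cells through carriers of the SLC2A family. Hexokinase traps it as glucose 6-phosphate, and phosphofructokinase commits it to glycolysis under the control of fructose 2,6-bisphosphate, which the bifunctional PFKFB enzymes make and degrade. Pyruvate leaves glycolysis in 2 directions. Lactate dehydrogenase turns it to lactate, which monocarboxylate transporters carry across the membrane, and the mitochondrial pyruvate carrier delivers it to pyruvate dehydrogenase, which the pyruvate dehydrogenase kinases switch off. In brain, neurons and astrocytes use different members of several of these families. Aldolase C is a marker of astrocytes as well as of Purkinje neurons, the glucose transporter Slc2a3 is typical of neurons, and Slc2a1 of vessels and astrocytes.

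After 6 h of tunicamycin the glucose transporters and the core of the pathway moved in opposite directions. Both glucose transporters rose, as did hexokinase 2 (Hk2), the bifunctional enzyme Pfkfb3 and the monocarboxylate transporter Slc16a1. All 13 genes of the reactions from glucose 6-phosphate to pyruvate fell, by log2 0.17 to 0.81, and so did both lactate dehydrogenase genes. Among them the changes of Eno1 and Gapdh are uncertain, because other genes share their sequence, as given below. Of the 32 genes, 5 rose (15.6%) and 24 fell (75.0%) at an adjusted p under 0.05 in edgeR's quasi-likelihood test, and 3 were not called. Over all genes tested, 64.3% were called, 31.8% higher and 32.5% lower, so a call is common in these data. The median log2 fold change of the 32 genes was -0.22, and that of all genes was -0.02, with the 5th and 95th percentiles of all genes at -0.74 and 0.78. Hk2, Slc2a1 and Pfkfb3 lay above that range and Aldoc, Pfkfb4 and Pdk4 below it. In 25 of the 32 genes no tunicamycin library overlapped any DMSO library, 5 being higher and 20 lower. Among all genes this was so for 50.9%, or 27.0% in the higher and 23.9% in the lower direction.

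The depth was 21055289 to 29234887 counts per library, and the lowest count of any of the 32 genes in any library was 40. The stress response was present in every treated library: 5 of 5 check genes rose with no overlap between groups, namely the ER chaperone Hspa5 (log2 fold change 2.38), Herpud1 of ER-associated degradation (2.92), the stress transcription factors Atf4 (1.39) and Ddit3 (2.93, with 10.9% of its exonic bases in another gene), and the pseudokinase Trib3 (4.10). The cultures were mixed, and most markers of astrocytes and of neurons fell with treatment, while those of other cell types are given further below. All 10 astrocyte markers were called lower (median log2 fold change -0.64, among them Slc1a3 at -0.83 and Atp1b2 at -0.48), their summed level going from 3230 to 3589 CPM (counts scaled to 1000000 per library) with DMSO to between 2246 and 2453 CPM. Of 11 neuron markers 10 were lower (median -0.20, among them Nefh at -1.23 and Tubb3 at -0.92; summed 8058 to 8615 against 6790 to 7121 CPM). In counts of whole cultures, fewer cells of a type and less RNA per cell cannot be told apart. What part these marker changes had in the results below was not tested.

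**Figure D1:**
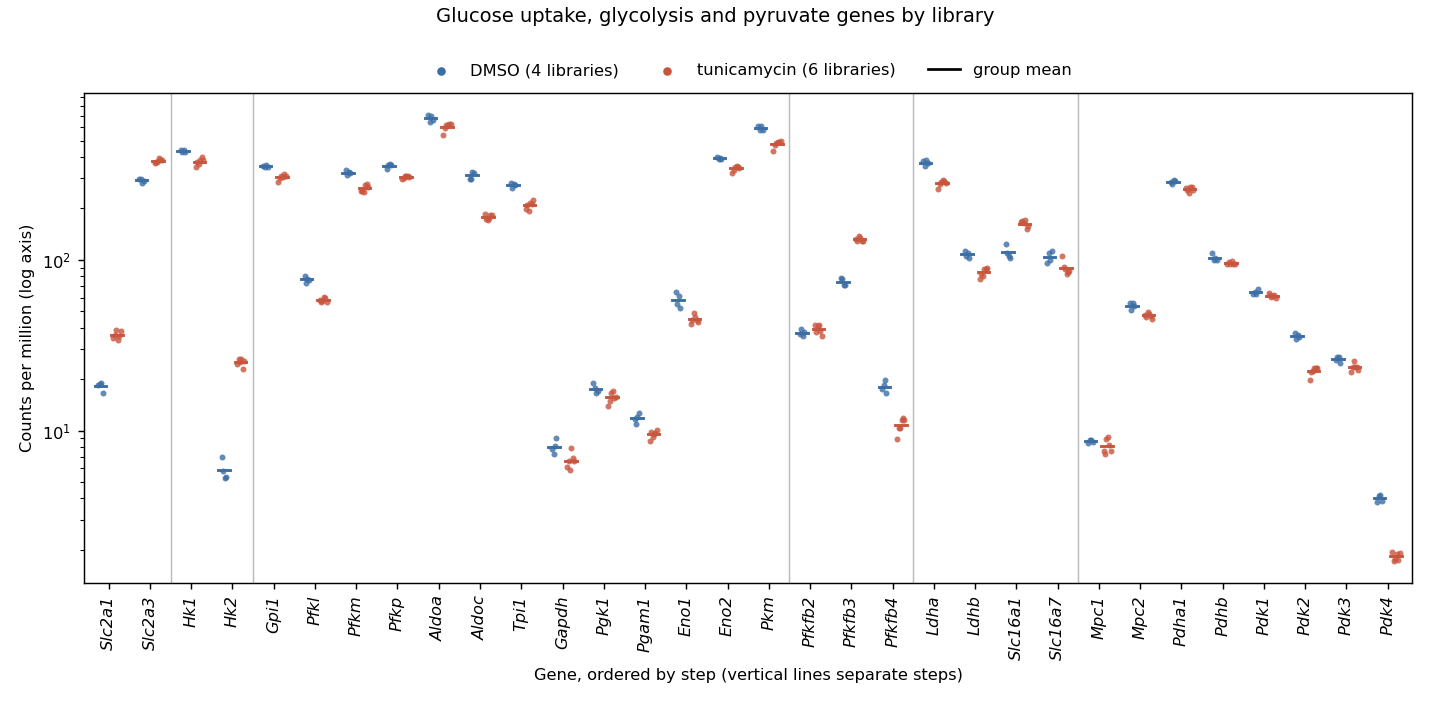
Level of each of the 32 genes in each library, in CPM on a log axis, with DMSO and tunicamycin libraries as points and group means as lines. The groups are apart for Hk2, where DMSO libraries lie between 5.26 and 7.02 CPM and tunicamycin libraries between 22.9 and 26.2 CPM, and for Pdk4, where the treated libraries are the lower ones.

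Slc2a1 (ENSMUSG00000028645, chromosome 4, 119108711 to 119137983, GRCm38), which encodes the glucose transporter GLUT1, was counted at 18.5, 18.7, 18.9 and 16.5 CPM in the DMSO libraries. The tunicamycin libraries held 35, 36.4, 38.6, 34, 35.7 and 38.5 CPM. Every treated library was far above every control library. The mean went from 18.1 ± 1.08 (SD, n = 4) to 36.4 ± 1.88 CPM (SD, n = 6), a log2 fold change of 1.0 ± 0.05 (SE; edgeR adjusted p = 2.89e-13). Slc2a3 (GLUT3; chromosome 6, 122727809 to 122801640) stood at 299, 297, 284 and 288 CPM with DMSO. It reached 369, 373, 375, 396, 383 and 385 CPM with tunicamycin, again with no overlap between the groups. Its log2 fold change was 0.37 ± 0.03 (edgeR adjusted p = 3.22e-10). Per kilobase of exon, Slc2a3 was the more abundant of the pair in each group. The level of Slc2a1 on that scale (counts per kilobase of exon, scaled to 1000000 per library) was 20.7 ± 1.33 and that of Slc2a3 161 ± 5.18 in the DMSO libraries (SD, n = 4).

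The hexokinases, which catalyse the first reaction, split. Hk2 (ENSMUSG00000000628, chromosome 6, 82725025 to 82774454), the form that is low in most resting brain cells and inducible in many tissues, gave 7.02, 5.80, 5.26 and 5.35 CPM with DMSO. With tunicamycin it gave 24.4, 26.2, 25.3, 26.2, 22.9 and 25.6 CPM. The change was the largest of the 32 genes, 4.25-fold (log2 2.09 ± 0.07, edgeR adjusted p = 2.68e-16). Hk1, the main brain hexokinase, went the other way, from 442, 426, 442 and 426 CPM to 351, 377, 366, 383, 399 and 383 CPM. It fell by log2 0.21 ± 0.03 (edgeR adjusted p = 8.12e-06), and its groups did not overlap. Hk1 remained far more abundant than Hk2: of the length-scaled counts of both genes, Hk2 made up 1.89% with DMSO and 8.71% with tunicamycin.

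**Figure D2:**
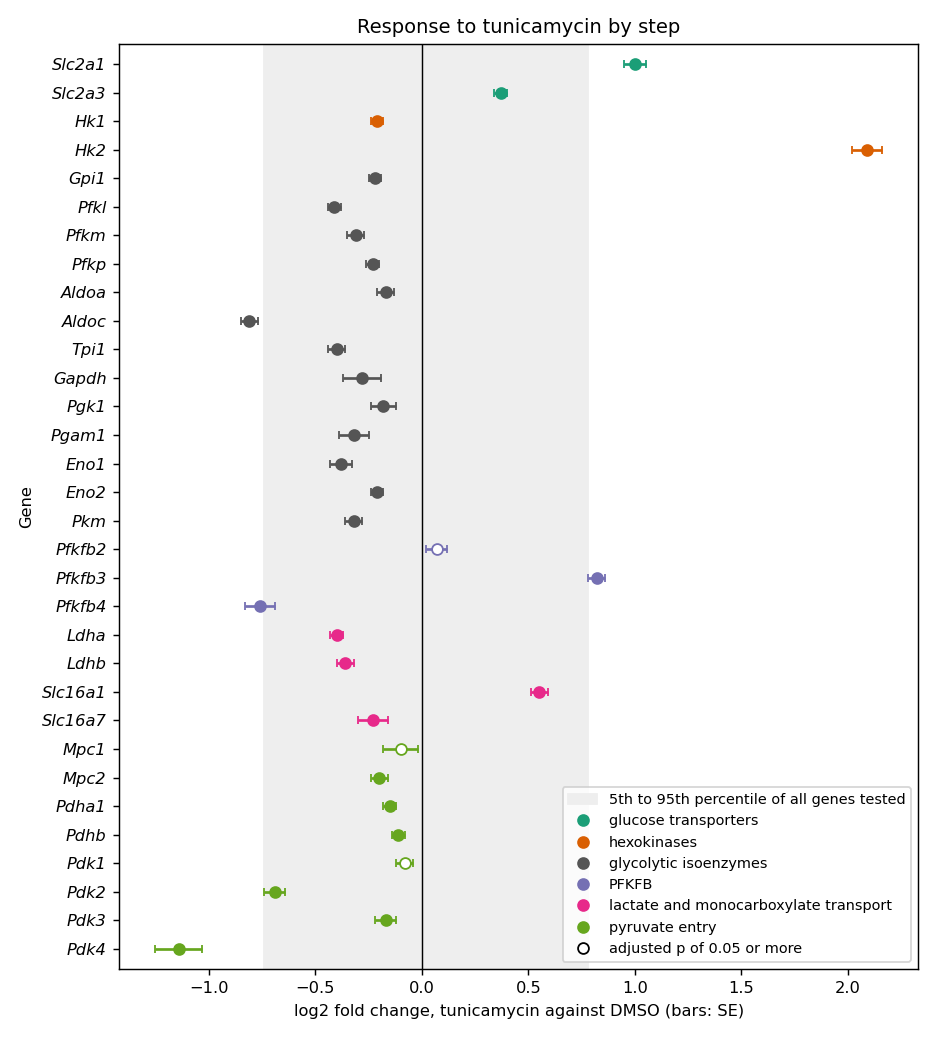
Log2 fold change of each of the 32 genes, tunicamycin against DMSO, with bars of 1 SE and genes coloured by step; the grey band spans the 5th to 95th percentile of all genes tested and open circles are genes that were not called. The 13 glycolytic isoenzymes all lie left of 0, while Hk2 at 2.09 and Slc2a1 at 1.0 lie to the right of the band.

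Between glucose 6-phosphate and pyruvate no gene rose. The median of the 13 genes was -0.31, and their summed level was 3354 to 3534 CPM in DMSO libraries and 2644 to 2906 CPM in tunicamycin libraries. Aldoc (ENSMUSG00000017390, chromosome 11, 78322968 to 78327781), aldolase C, fell most. It was counted at 296, 299, 329 and 325 CPM with DMSO and at 185, 173, 172, 175, 184 and 183 CPM with tunicamycin. The 2 groups were well apart, and the log2 fold change was -0.81 ± 0.04 (edgeR adjusted p = 4.01e-14). Aldoc is itself used as an astrocyte marker, and the 10 astrocyte markers, none of which is among the 32 genes, had a median of -0.64. Aldoa, the other aldolase of this set, fell by log2 0.17 ± 0.04 (edgeR adjusted p = 8.72e-04), from 640 to 707 CPM down to 541 to 629 CPM.

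The other 11 genes of this stretch fell by log2 0.18 to 0.41. Among the phosphofructokinase subunits, the liver form Pfkl was at 76.9 ± 2.85 CPM with DMSO and 58.2 ± 1.67 CPM with tunicamycin (log2 -0.41), the muscle form Pfkm from 324 ± 7.94 to 263 ± 12.7 CPM (-0.31) and the platelet form Pfkp from 356 ± 11.2 to 306 ± 5.38 CPM (-0.23). Tpi1, triose phosphate isomerase, fell from 262 to 282 CPM with DMSO to 194 to 223 CPM with tunicamycin (log2 -0.40 ± 0.04, edgeR adjusted p = 4.61e-09). Gpi1, the isomerase that follows hexokinase, fell by log2 0.22. The neuronal enolase Eno2 fell by log2 0.21 and the ubiquitous Eno1 by 0.38. Pkm, pyruvate kinase, was at 593 ± 21.4 CPM with DMSO and 477 ± 22.4 CPM with tunicamycin (log2 -0.32 ± 0.04, edgeR adjusted p = 5.54e-08), at the gene level, where its M1 and M2 forms are not told apart. Gapdh (log2 -0.28, edgeR adjusted p = 0.00792) and Pgk1 (-0.18, edgeR adjusted p = 0.0102) fell with overlapping groups, and Pgam1 fell by 0.32.

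Levels of several of these enzymes are uncertain. Gapdh, usually among the most abundant transcripts of a cell, was counted at only 8.04 ± 0.721 CPM with DMSO. Of its 50-base words, 94.6% in the most affected transcript also occur in transcripts of other genes. The same value was 89.8% for Pgam1, 85.5% for Eno1, 77.9% for Pkm, 68.0% for Pgk1, 30.3% for Pdhb and 28.7% for Ldhb. Reads were 50 bases long, and how reads with several matches were counted is not given in the sources used here. With these 7 genes left out, 5 genes rose and 17 fell of 25. Genes that share words with Eno1 summed to 404 CPM with DMSO and 414 CPM with tunicamycin. Such sums were 153 and 148 CPM for Gapdh and 164 and 166 CPM for Pdhb. The changes of Eno1, Gapdh and Pdhb are therefore uncertain as well as their levels. For Ldhb, Pkm, Pgam1 and Pgk1 the sums were at most 5.17 CPM in any library. Pfkfb2, Pdha1, Mpc1, Pkm, Gpi1 and Pfkm share 10.8% to 23.1% of their exonic bases with an overlapping gene, and the kit does not mark strand. Ordered by length-scaled level in the DMSO libraries, Aldoa led the core enzymes (926 ± 40.8), followed by Pkm (474 ± 16.7). Tpi1 (398 ± 11.3), Pfkm (388 ± 9.54) and Aldoc (382 ± 18.2) came next and lay within their spread of each other. Below them came Eno2 (334 ± 3.89), Gpi1 (218 ± 2.79) and Pfkp (106 ± 3.19), and the lowest was Gapdh (7.77 ± 0.634). The order depends on the merged exon length, which was 13401 bases for Pfkp and 3340 for Pfkm. In CPM Pfkp was above Pfkm (356 and 324 CPM with DMSO).

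Tunicamycin replicate 1 was the lowest of the 6 treated libraries in 8 of the 13 core genes, and its summed level of 2644 CPM was the lowest of the group. Without it, 29 of the 29 called genes kept direction and call, and Pdk1 was also called lower (edgeR adjusted p = 0.0355). Without DMSO replicate 4, Gapdh was no longer called (edgeR adjusted p = 0.0503). The names of the deposited files carry a lane number, here read as the sequencing lane. Lane 1 holds DMSO replicates 1 and 2 with tunicamycin replicates 1 and 2, lane 2 DMSO replicate 3 with tunicamycin replicates 3 and 4, and lane 3 DMSO replicate 4 with tunicamycin replicates 5 and 6. Within lanes 1, 2 and 3 alone, the median of the 13 genes was -0.34, -0.33 and -0.24, the last 2 values resting on 1 DMSO library each. The fall of Pgk1 was -0.34 in lane 1, -0.01 in lane 2 and -0.13 in lane 3.

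The 3 PFKFB genes encode enzymes that set fructose 2,6-bisphosphate, and they went in different directions. Pfkfb3 (ENSMUSG00000026773, chromosome 2, 11471433 to 11554077), whose product favours synthesis of this activator, was counted at 78.0, 77.1, 70.9 and 71.4 CPM with DMSO. It was at 133, 129, 138, 135, 129 and 129 CPM with tunicamycin, above all controls. The change was 1.77-fold (log2 0.82 ± 0.04, edgeR adjusted p = 1.07e-14). Pfkfb4 (chromosome 9, 108991778 to 109032228) fell, from 17.4, 18.6, 19.7 and 16.6 CPM to 8.97, 10.3, 10.3, 11.5, 11.9 and 11.5 CPM (log2 -0.76 ± 0.07, edgeR adjusted p = 6.09e-09). Its fall was larger in lanes 1 and 2 alone (-0.90 and -0.88) than in lane 3 (-0.52), a difference that was not tested. Pfkfb2 was at 37.2 ± 1.46 and 39.4 ± 2.39 CPM and was not called (fold 1.05, interval of 2 SE 0.983 to 1.12, edgeR adjusted p = 0.204).

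On the lactate side, Ldha, which encodes the subunit typical of lactate-producing tissue, gave 378, 356, 385 and 368 CPM with DMSO and 261, 280, 287, 295, 291 and 281 CPM with tunicamycin. It fell by log2 0.40 ± 0.03 (edgeR adjusted p = 9.15e-10). Ldhb, the subunit typical of lactate-consuming tissue, fell by a like amount, log2 0.36 ± 0.04. The transporters diverged. Slc16a1 (MCT1; ENSMUSG00000032902, chromosome 3, 104638668 to 104658462), found in brain mainly on glia and vessels, rose from 124, 110, 106 and 103 CPM to 166, 168, 165, 171, 152 and 158 CPM. The groups did not overlap, and the change was 1.47-fold (log2 0.55 ± 0.04, edgeR adjusted p = 5.53e-10). Slc16a7 (MCT2), the neuronal form, was at 95.8, 110, 99.9 and 112 CPM with DMSO and at 105, 90.5, 88.4, 82.9, 84.4 and 86.4 CPM with tunicamycin. It was called lower (log2 -0.23 ± 0.07, edgeR adjusted p = 0.00821), with treated replicate 1 inside the range of the controls. Its log2 fold change was -0.07 in lane 1, which holds that library, -0.24 in lane 2 and -0.39 in lane 3. Among the cells that usually carry MCT1, the astrocyte markers fell as given above, and of 4 tested endothelial markers Flt1 alone, at 0.688 CPM with DMSO, was called higher. Their part in the rise of Slc16a1 was not tested.

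At the entry of pyruvate into mitochondria 6 of 8 genes fell, 2 were not called and the median was -0.16. Pyruvate dehydrogenase kinases switch the enzyme off by phosphorylation, and Pdk4 and Pdk2 of this family had the largest changes of the step. Pdk4 (ENSMUSG00000019577, chromosome 6, 5483351 to 5496309), the form induced by fasting in other tissues, was counted at 3.82, 4.14, 4.20 and 3.85 CPM with DMSO. With tunicamycin it was at 1.93, 1.73, 1.76, 1.90, 1.75 and 1.92 CPM, or 0.455 of its DMSO level. The log2 fold change was -1.14 ± 0.11 (edgeR adjusted p = 4.45e-09). Pdk2 (chromosome 11, 95026258 to 95041354) gave 37.1, 34.3, 36.4 and 35.1 CPM with DMSO and 19.8, 22.1, 22.4, 23.4, 23.1 and 23.1 CPM with tunicamycin. Its groups were also apart (log2 -0.69 ± 0.05, edgeR adjusted p = 4.78e-11). Pdk3 fell slightly (-0.17 ± 0.05, edgeR adjusted p = 0.00409) with overlapping groups. Pdk1 was not called (64.6 ± 2.05 and 61.7 ± 1.53 CPM, fold 0.949, interval of 2 SE 0.904 to 0.997, edgeR adjusted p = 0.0681).

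The complex itself and the carrier changed little. Pdha1 and Pdhb, the 2 subunits of the E1 enzyme, fell by log2 0.15 and 0.11, the change of Pdhb being uncertain as given above. Mpc2, a subunit of the pyruvate carrier, fell by 0.20, and its partner Mpc1 was not called (8.66 ± 0.194 and 8.12 ± 0.761 CPM, fold 0.930, interval of 2 SE 0.838 to 1.03, edgeR adjusted p = 0.236). The authors' deposited tables list 30 of the 32 genes, 5 as upregulated and 25 as downregulated, against 29.7% and 30.4% of all genes tested. Pdk1 is among the downregulated genes of the authors' deposited table (adjusted p = 0.0385 there), and Pfkfb2 and Mpc1 are in neither.

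Because a share within a library does not move with scaling, each isoenzyme was also expressed as a percentage of its family, in counts per kilobase of exon. Of 18 shares tested by a two-sided exact permutation test of 4 against 6 libraries, 14 passed an adjusted p of 0.05. Shares within a family add up to the whole, so they are not separate tests. They also restate the changes in level given above. The smallest p these splits allow is 0.00476, which adjusts to 0.00714 over the 18 shares. Within the PFKFB family, Pfkfb3 made up 52.6 ± 1.39% with DMSO (SD, n = 4) and 69.6 ± 0.694% with tunicamycin (SD, n = 6; exact permutation, adjusted p = 0.00714). Pfkfb4 gave up the most, from 19.9% to 8.78%. Pfkfb2 went from 27.5% to 21.6% although its own level was not called, which follows from the rise of Pfkfb3. Aldoc made up 29.2% of both aldolases with DMSO and 20.9% with tunicamycin. Slc16a7 made up 26.1% of both transporters with DMSO and 17% after treatment.

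Among the kinases, Pdk2 was the largest length-scaled share with DMSO (36.5%) and Pdk3 with tunicamycin (37.2%). This order depends on the merged exon length, which was 7779 bases for Pdk1, 3163 for Pdk2 and 2561 for Pdk3. In CPM, without that correction, Pdk1 was the highest of the family in both groups (64.6 and 61.7 CPM). Pdk1 rose from 26.8% to 32.2% of the family although its own level was not called, which follows from the larger falls of Pdk2 and Pdk4. Slc2a1 rose from 11.4% to 16.5% of both glucose transporters. In each of these families, and for the Hk2 share, the groups did not overlap (exact permutation, adjusted p = 0.00714). Shares of the phosphofructokinase subunits moved by at most 1.09 percentage points: Pfkm made up 71.8% and 71.3% (difference -0.485 percentage points, exact permutation, adjusted p = 0.324), Pfkl 8.52% and 7.92%, and Pfkp 19.6% and 20.7%. The Pfkp share lost its call when any of DMSO replicates 1, 3 and 4 or tunicamycin replicates 1, 2 and 6 was left out, falling to 0.677 percentage points without DMSO replicate 1. The shares of Ldhb (37.9% and 38.6%), Mpc2 (63.8% and 62.3%) and Pdha1 (74.2% and 73.7%) were not called (exact permutation, adjusted p = 0.316, 0.211 and 0.324). Eno2 made up 88.5% and 89.7% of both enolases (exact permutation, adjusted p = 0.0132), with Eno1 uncertain as given above.

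**Figure D3:**
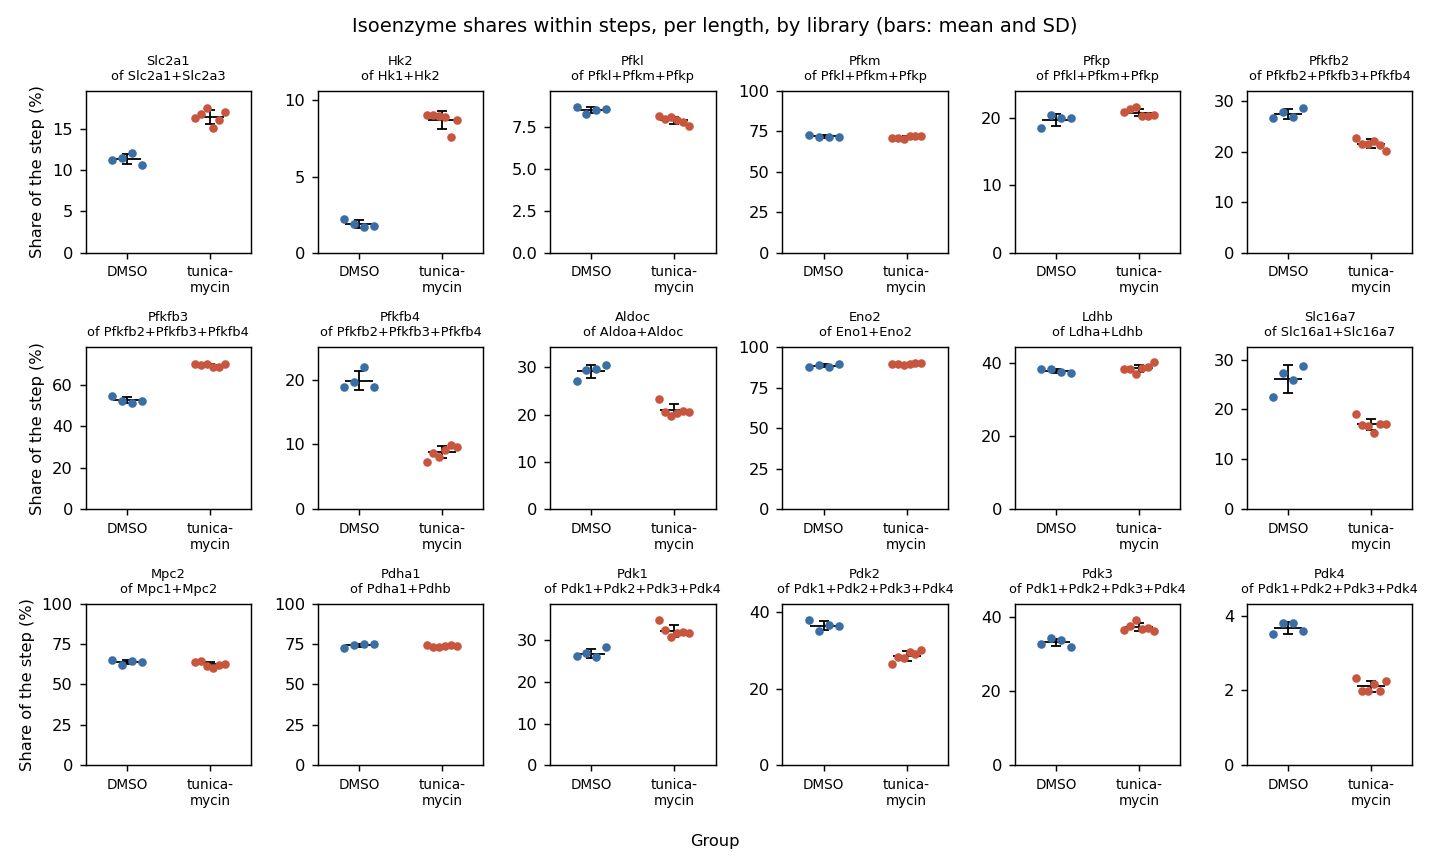
Share of each isoenzyme within its family in each library, in percent of length-scaled counts, with libraries as points and the mean and SD of each group as bars. Pfkfb3 lies between 51.1% and 54.5% in DMSO libraries and between 68.7% and 70.2% in tunicamycin libraries, while the points of Pfkm overlap.

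The start sites of these genes were then searched for short sequences known from 2 responses, the ER stress response and the response to low oxygen, of which glycolysis genes are classic targets. RefSeq promoters (GRCm38.p6) were found for 30 of the 32 genes, with 47 start sites, and the 250 bases before each start were read on both strands. The sequences of 3 rising genes and of 2 falling ones, Pdk2 and Ldha, are shown because matches occur on both sides. Ldha holds the most ACGTG matches of the 5, and the sequences are written 5′ to 3′ along the gene with every match of any searched motif in capitals.
Hk2, chr6:82774455-82774704, minus strand: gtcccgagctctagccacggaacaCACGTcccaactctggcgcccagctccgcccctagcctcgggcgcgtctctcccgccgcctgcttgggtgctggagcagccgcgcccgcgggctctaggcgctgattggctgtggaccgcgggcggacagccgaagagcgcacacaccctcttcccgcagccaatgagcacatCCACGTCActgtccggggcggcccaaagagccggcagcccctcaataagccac
Slc16a1, chr3:104638414-104638663, plus strand: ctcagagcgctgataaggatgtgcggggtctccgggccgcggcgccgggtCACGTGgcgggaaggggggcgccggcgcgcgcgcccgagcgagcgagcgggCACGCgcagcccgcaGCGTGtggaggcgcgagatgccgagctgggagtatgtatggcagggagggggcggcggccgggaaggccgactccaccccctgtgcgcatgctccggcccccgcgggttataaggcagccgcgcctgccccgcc
Pfkfb3, chr2:11502091-11502340, minus strand: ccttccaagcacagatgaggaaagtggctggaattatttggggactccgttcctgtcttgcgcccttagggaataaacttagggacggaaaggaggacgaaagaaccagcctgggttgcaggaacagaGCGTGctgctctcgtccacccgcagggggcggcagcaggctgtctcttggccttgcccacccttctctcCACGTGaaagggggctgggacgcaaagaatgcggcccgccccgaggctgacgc
Pdk2, chr11:95041372-95041621, minus strand: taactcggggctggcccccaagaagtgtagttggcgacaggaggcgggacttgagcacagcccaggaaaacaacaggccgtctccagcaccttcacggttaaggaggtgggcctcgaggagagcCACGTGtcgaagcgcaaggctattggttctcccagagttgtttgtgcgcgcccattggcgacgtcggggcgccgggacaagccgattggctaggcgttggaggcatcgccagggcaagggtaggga
Ldha, chr7:46845554-46845803, plus strand: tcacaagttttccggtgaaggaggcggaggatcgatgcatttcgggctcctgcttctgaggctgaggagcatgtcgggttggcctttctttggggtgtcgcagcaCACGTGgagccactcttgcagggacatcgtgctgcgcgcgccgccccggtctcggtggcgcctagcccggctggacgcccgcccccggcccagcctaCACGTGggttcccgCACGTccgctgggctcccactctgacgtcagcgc
The core ACGTG, to which hypoxia-inducible factors bind, lies in all 5 sequences, which were chosen for their matches. In Slc16a1, Pfkfb3, Pdk2 and Ldha it is part of CACGTG, the E-box read by MYC and related factors. The exception is the Ldha match nearest the start, which lies outside an E-box. In Hk2 one ACGTG is part of TGACGTGG, an unfolded protein response element, on the opposite strand. Read along the gene, that match begins 53 bases before the transcription start.

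ACGTG was found in 18 of the 47 promoters (38.3%), against 16.6% of 32851 promoters in the table. It was present in 4 of 4 rising genes with an entry, Slc2a1 among them, and in 9 of 23 falling ones. The second hypoxia core, GCGTG, was in 57.4% of these promoters and in 28.2% of all, and was present in 3 of 4 rising and 16 of 23 falling genes. CACGTG was in 12.8% against 6.02%, in 2 of 4 rising and 3 of 23 falling genes. TGACGTGG was in 2.13%, the Hk2 promoter alone, against 0.563% of all, and each ACGTG within a longer motif was counted for both. TGATGNAAN, the composite site of ATF4 and C/EBP factors, was in none of the 47 (3.44% of all), and neither was the ER stress element (0.113% of all). These are matches of letters in a fixed window, and binding was not measured. Windows of the same gene can overlap, as at Aldoa and Eno1, so a site can count more than once. Counts of rising and falling genes took a match in any window of a gene. The promoters of all genes were not matched to these in base composition or expression, and enrichment was not tested.

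Genes that border the pathway moved in several directions. Of 121 tested genes in 12 further lists, 37 rose and 55 fell, with a median of -0.09. Over all genes 31.8% were called higher and 32.5% lower, and in these lists 30.6% and 45.5%, so the share of rises was near that of all genes. Routes that draw on glycolytic intermediates for sugar donors or serine were mostly higher. In the hexosamine and mannose branches, which make sugar donors for glycosylation, 7 of 10 genes rose, among them Gmppb (log2 1.20), which makes GDP-mannose, and Gnpnat1 (1.28). The counts of both are uncertain, since 33.6% of the exonic bases of Gmppb and 83.5% of those of Gnpnat1 lie in an overlapping gene. Gfpt2 (-0.27) and Pmm1 (-0.19) fell. All 3 genes of the serine branch rose, led by Psph from 24.9 ± 3.31 to 82.1 ± 2.64 CPM (log2 1.72; 10.4% of its exonic bases lie in another gene) and Psat1 (0.76). Phgdh rose by only log2 0.22 with overlapping groups, and 47.8% of its 50-base words over all its transcripts also occur in other genes. The values given above for core enzymes are for the most affected transcript. Over all transcripts they are 53.9% for Pgk1, 36.2% for Pgam1, 26% for Eno1 and 25.1% for Gapdh. Pck2, the mitochondrial enzyme that makes phosphoenolpyruvate, rose from 6.67 ± 0.331 to 33.2 ± 1.49 CPM (log2 2.31 ± 0.06, edgeR adjusted p = 9.58e-19), while Pcx (-0.27) fell.

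Genes of oxidative routes were mostly lower. In the tricarboxylic acid cycle 14 of 16 fell and the other 2 were not called (median -0.16), led by the succinate dehydrogenase subunits Sdhd (-0.66) and Sdhc (-0.52). Of 9 genes of the NADH shuttles 7 fell, among them Mdh1 (-0.30), and Got1 rose (0.35). Pentose phosphate genes fell in 6 of 8 cases, with Pgd (-0.49) and Tkt (-0.37) the clearest. The phosphatases that reverse the kinases of pyruvate dehydrogenase moved apart: Pdp2 fell from 14.8 ± 0.862 to 4.67 ± 0.864 CPM (log2 -1.66 ± 0.10, edgeR adjusted p = 5.36e-12), and Pdp1 rose from 72.3 ± 4.38 to 102 ± 4.17 CPM (0.49 ± 0.04, edgeR adjusted p = 3.59e-10). In their list of 10 other transport and dehydrogenase genes 2 rose and 4 fell, Dld (0.15) being the second that rose.

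Glycogen genes were mixed, with 4 of 13 higher and 5 lower. Ppp1r3c, a glycogen-targeting subunit of protein phosphatase 1, fell from 40.7 ± 4.71 to 13.1 ± 0.710 CPM (log2 -1.64) and Pgm2 rose (1.08). Among 10 other glucose transporters and hexokinases, the ADP-dependent glucokinase Adpgk (0.68), Slc2a6 (0.51) and Slc2a13 (0.30) rose and 5 fell. Of 7 other isoenzymes none rose, and Bpgm (-0.26) and Pfkfb1 (-0.77, at 0.958 CPM with DMSO) fell. Of 19 genes of the hypoxia response outside glycolysis 9 rose and 6 fell, with a median of 0.07; the growth factor Vegfa rose (1.09) and the hypoxia factor gene Epas1 fell (-0.69). Of 13 glucose and energy sensors 7 rose, among them Myc (1.44) and Arrdc4 (0.87), a target of the glucose-sensing MondoA factors, and Prkag2 (-0.27, with 14.5% of its exonic bases in another gene) and Esrra (-0.16) fell.

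**Figure D4:**
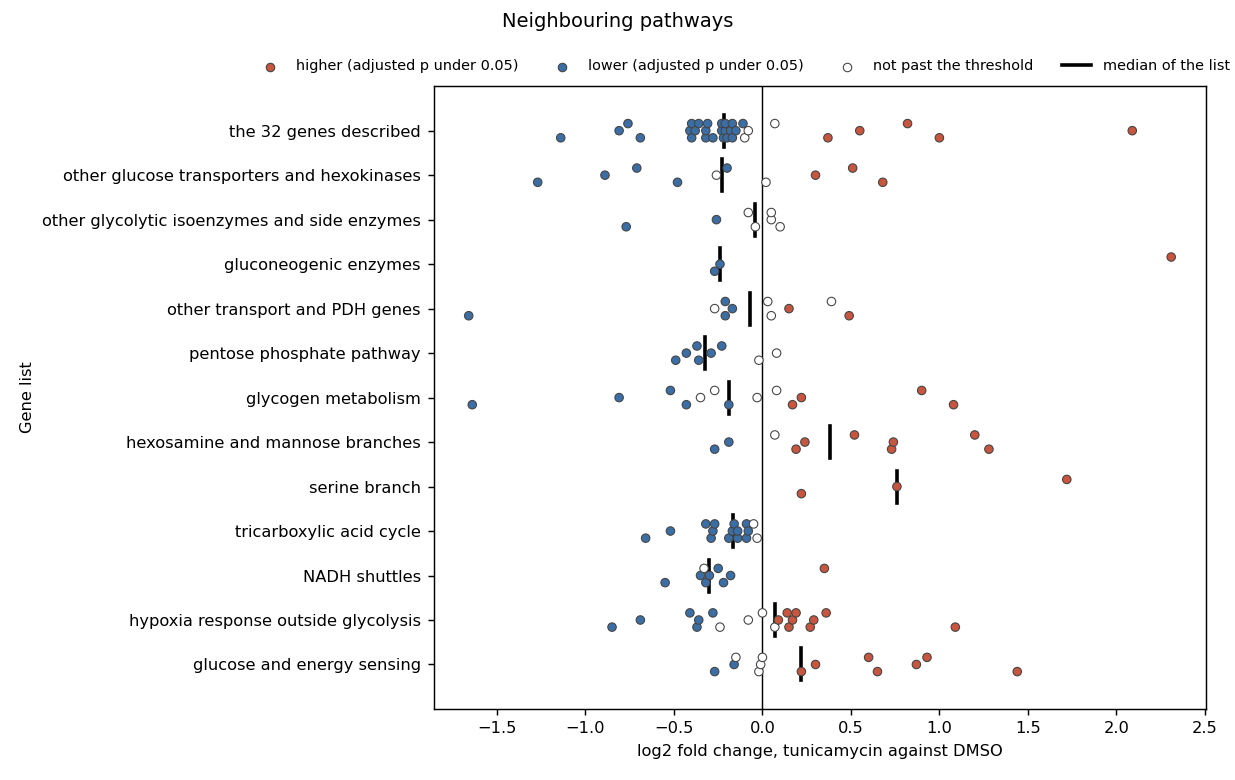
Log2 fold change of the 32 genes and of every tested gene in the lists of neighbouring pathways, each point a gene and each bar the median of its list. The serine branch (median 0.76) and the hexosamine and mannose branches (0.38) lie above 0, and the tricarboxylic acid cycle (-0.16) and pentose phosphate lists (-0.33) below it.

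The remaining cell type markers were counted to describe the cultures. Of 7 tested microglia markers 5 were lower, among them Tyrobp and C1qc, with summed levels of 16.8 to 20.3 CPM with DMSO and 12.1 to 14.7 CPM with tunicamycin. Of 7 proliferation markers 7 were lower, among them Mcm3 and Mcm5 (94.2 to 118 against 59.3 to 70.5 CPM). Of 4 oligodendrocyte precursor markers 3 were lower, among them Olig1 and Cspg4 (145 to 200 against 86.2 to 110 CPM), and of 4 progenitor markers 3 were lower, among them Hes5 (31.8% of its exonic bases in another gene) and Eomes, and 1 was higher (150 to 218 against 200 to 242 CPM). Oligodendrocyte markers had Mog higher and Cnp lower of 4 tested (40.9 to 48.7 against 34.2 to 37.7 CPM). Fibroblast and mural markers had Dcn and Rgs5 lower of 8 (142 to 271 against 115 to 204 CPM), and choroid plexus and ependyma markers had Foxj1 and Folr1 lower of 3 (44.7 to 69.1 against 23.2 to 39.3 CPM). Endothelial markers summed to 35.6 to 75.1 CPM with DMSO and 52.6 to 79.3 CPM with tunicamycin, and Cdh5 was not called. None of the red blood cell markers passed the filter, and they summed to less than 1 CPM in each library.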

How the data were processed

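PolyA RNA was sequenced on a HiSeq2000 as 50 bp single ends from a TruSeq v2 library kit, per the labels' protocols. The submitters' processing notes name, without roles, the build mm10 and the tools DESeq2, Subread 1.5.1 with featureCounts, STAR 2.5.2b and FastQC 0.11.5. The authors deposited whole-number counts for each library, not normalized. Their deposited tables of changed genes hold a log2 fold change, a p-value with its adjusted form (highest 0.0499) and a normalized signal that equals the counts divided by 1 factor per library. The annotation, strand setting and treatment of reads with more than 1 match were not given in the sources used here.

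Groups follow the agent named in each title. GENCODE M21 (GRCm38) named 48349 of 48709 identifiers, and the other 360 held 0.0462% of the counts. EdgeR 4.0.16 (R 4.3.3; TMM, filterByExpr, robust quasi-likelihood F test, two-sided) was fitted to all 10 libraries, with Benjamini-Hochberg adjustment over 15660 genes and calls at 0.05. The SE is the log2 fold change divided by the square root of F. CPM are counts scaled to 1000000 per library. Length-scaled levels are counts per kilobase of merged exon, scaled to 1000000, and were compared within libraries or within 1 group. A near-identical copy shares at least 10 percentage points more of its 50-base words with other genes than its exon overlap gives. The code was tested on simulated counts in which few genes changed, unlike these data, so the scaling under a broad change was not tested. Libraries of a group differed beyond counting noise (chi-square 2.07 to 9.64 per degree of freedom). The members and all lists were chosen with earlier results of these data known. All members are named, and of every other list the 2 genes with the smallest p, plus 5 ER stress check genes and Phgdh. In lists of neighbouring pathways, up to 3 genes against the majority are also named. In cell type lists such genes are only counted. Phrases on cells that usually express a gene are background. The alternatives were another scaling (DESeq2 1.42.0 size factors, upper quartile), the DESeq2 test, other filters, sequencing lane, the replicate block, GC and length offsets, and each library left out.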

Additional observations from a re-analysis of the deposited data

Results flagged for a closer look

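In 210 groups of library values, the highest or lowest library stood far from the others in 8, where chance alone gives about 1 in 20. DMSO replicate 4 was low in Slc2a1, at 16.5 CPM with the next library at 18.5 CPM. Tunicamycin replicate 1 was high in Slc16a7 (105 CPM, next 90.5 CPM) and low in Pdk2 (19.8 CPM, next 22.1 CPM) and in Slc2a6 (71.0 CPM, next 79.4 CPM). The same library had the highest Aldoc share of both aldolases, 23.4% with the next at 20.7%. Tunicamycin replicate 5 had the lowest Hk2 share of both hexokinases, 7.59% with the next at 8.72%. DMSO replicate 1 had the highest Pfkm share, 72.9% with the next at 71.5%, and the highest level of the proliferation marker Mcm3, 12.1 CPM with the next at 10.4 CPM.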

How the results depend on the processing

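Of the 29 called genes, 29 kept direction and call with DESeq2 size factors, upper-quartile scaling, the DESeq2 test, both other filters, lane as a term and the GC and length offsets, and 22 to 25 within a lane alone. Lanes 2 and 3 hold 1 DMSO library each, which is assumed to vary like the treated ones, so a call there is weak evidence either way. Upper-quartile scaling shifted the median of all genes by -0.11, to -0.13. It gave medians of -0.33 over all 32 genes, 0.57 for glucose transporters, 0.82 for hexokinases, -0.43 for the core isoenzymes, -0.41 for the lactate step and -0.27 for pyruvate entry, and it turned the PFKFB median and Pfkfb2 to -0.05 each. With it 5 rose and 26 fell, Mpc1 and Pdk1 being added, and among all genes 3632 rose and 6934 fell. Lane 1 alone gave 0.64 for transporters, 0.87 for hexokinases, -0.25 for the lactate step and -0.19 for pyruvate entry. Lane 2 alone gave 1.0 for hexokinases, 0.19 for PFKFB and -0.19 for pyruvate entry, with Mpc1 at 0.00 and the marker Folr1 at 0.07, both reversed. Lane 3 alone gave 0.78, 1.02 and -0.24 for transporters, hexokinases and isoenzymes, and reversed PFKFB and Pfkfb2 (-0.03 each) and the marker Cdh5 (-0.40). GC and length offsets reversed PFKFB and Pfkfb2 to -0.02 each. The cause of these reversals was not tested. Leaving out 1 library gave 5 genes higher and 23 to 25 lower each time, hexokinase medians of 0.92 to 0.98 and 13 to 14 shares past the threshold. Same-numbered DMSO and tunicamycin libraries did not deviate together (correlations -0.2166, 0.008525, -0.06159 and -0.07186). No pairing by number was seen, though so few correlations cannot exclude a weak one. With the replicate block 5 rose and 21 fell, Pgk1, Slc16a7 and Pdhb no longer passing (edgeR adjusted p = 0.0648, 0.0809 and 0.0756). With the replicate block and GC and length offsets the lactate step had a median of -0.33 and pyruvate entry -0.19, with 24 lower.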
